A study of Mus musculus with 51 samples.

Results

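The genes described here are those of cholesterol and fatty acid synthesis and of the SREBP system that controls them, followed in fetal mouse kidney over 48 h. They were chosen by name from a list of 31 genes, and 30 of these are among the 16099 genes of the expression table. The symbol Msmo1 and its older names did not match a gene of the table, so Msmo1 was not analysed here. By role the 30 genes comprise 7 of the mevalonate pathway, 10 of the steps that lead to sterols, 6 regulators and transport proteins, and 7 of fatty acid synthesis. None of the 30 was lost to the filter on low values, which required a mean of 10 or more across the 51 libraries.

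The tissue was kidney of wild-type C57BL/6 fetuses, taken every 4 h from CT0 on embryonic day 18 through CT24 on embryonic day 19 to CT48 on embryonic day 20. The last age is that of the labels, while the submitters' design text puts it later. There were 3 libraries at CT20 and 4 at each other time point, all of 1 strain and genotype with no treatment, so every comparison is between times. The labels describe biological replicates without naming dams, so littermates may stand behind libraries of the same time, and p-values measure only the spread between these samples. In whole kidney, fewer cells of a type and less RNA per cell cannot be told apart.

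Cholesterol is built from acetyl-CoA through mevalonate, farnesyl diphosphate, squalene and lanosterol, and fatty acids are built from the same precursor by a carboxylase, a synthase, elongases and desaturases. SREBP transcription factors, the products of Srebf1 and Srebf2, raise transcription of these genes after Scap has carried them from the endoplasmic reticulum to the Golgi. Insig proteins hold Scap back when sterols are plentiful, and Insig1 is itself an SREBP target, which makes its transcript a common reporter of the pathway.

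Promoters of 4 genes whose transcripts carry the results below are shown because they bear, or lack, the short motifs usually looked for in SREBP targets. RefSeq promoter windows of build GRCm38.p6 matched 25 of the 31 listed symbols, and the first entry of each gene was read over the 250 bases before its annotated start, 5′ to 3′ on the gene's strand. Capitals mark CCAAT, the box bound by NF-Y (read as ATTGG on the opposite strand), CACGTG, an E-box, and TCACNCCAC, the core of the sterol response element. Each was searched on both strands.
Insig1, chr5:28071162-28071411, plus strand: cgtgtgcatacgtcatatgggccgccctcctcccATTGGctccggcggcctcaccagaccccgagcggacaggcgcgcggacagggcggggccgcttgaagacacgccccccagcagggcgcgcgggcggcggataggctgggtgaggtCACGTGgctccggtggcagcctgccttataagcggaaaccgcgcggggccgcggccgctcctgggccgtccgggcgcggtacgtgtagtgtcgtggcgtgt
Hmgcs1, chr13:119690101-119690350, plus strand: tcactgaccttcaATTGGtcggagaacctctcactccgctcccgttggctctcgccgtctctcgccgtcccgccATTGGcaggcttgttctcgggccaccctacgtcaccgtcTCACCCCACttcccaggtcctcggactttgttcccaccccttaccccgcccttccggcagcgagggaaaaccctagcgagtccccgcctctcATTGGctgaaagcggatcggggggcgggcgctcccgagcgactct
Cyp51, chr5:4104698-4104947, minus strand: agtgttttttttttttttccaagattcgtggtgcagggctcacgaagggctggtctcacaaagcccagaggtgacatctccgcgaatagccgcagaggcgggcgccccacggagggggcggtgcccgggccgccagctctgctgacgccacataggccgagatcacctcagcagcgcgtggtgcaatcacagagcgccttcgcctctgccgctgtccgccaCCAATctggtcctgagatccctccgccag
Idi1, chr13:8885356-8885605, plus strand: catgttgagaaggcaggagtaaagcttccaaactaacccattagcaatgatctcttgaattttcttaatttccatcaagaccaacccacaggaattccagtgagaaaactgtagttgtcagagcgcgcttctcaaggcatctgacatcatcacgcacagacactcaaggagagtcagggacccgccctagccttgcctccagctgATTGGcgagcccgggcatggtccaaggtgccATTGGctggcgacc
CCAAT was present in 18 of the 25 windows (72.0%), against 34.5% of 27025 promoter windows of the same length. CACGTG was found for Insig1, Hsd17b7 and Sc5d, 12.0% of the 25, against 6.05% of all windows. TCACNCCAC was found for Hmgcs1 alone among the 25 (4.0%, against 1.04% of all windows). A match is a string of letters in this window and not a measured binding site. Only these strings were searched, so a window without TCACNCCAC, that of Cyp51 included, may hold another form of the sterol response element.

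The deposited values are whole numbers that were normalised before rounding, with library totals of 34226024 to 35711911, so sequencing depth is unknown and precision comes from the spread between libraries. The parts CT0 to CT24 (27 libraries) and CT28 to CT48 (24 libraries) have nearly equal gene means, with a difference of at most 0.05 (log2) for any of the 30 genes. Over 12274 genes the SD of this difference was 0.032. It was 0.095 for CT16 to CT24 against CT0 to CT8, and 0.289 for CT40 to CT48 against CT28 to CT36. The parts are thus more alike than times within them, and the cause was not tested. A change in level between the parts may not be visible, so levels were not compared across CT24 and CT28. The rhythm fit and the authors' q values span both parts. The median SD within time points on the log2 scale was 0.0735 for the 30 genes in the first part and 0.132 in the second part. The 10 kidney markers summed to 58896 to 83850 per library, those of adrenal to 153 to 698 and those of liver to 8569 to 16011. In the liver list Afp alone ran from 5965 to 9259 and Ttr had a mean of 2099, while Alb had a mean of 211. The liver sums below are therefore largely those of Afp. Within the second part CT28 and CT32 stood apart from CT36 to CT48 along the first principal component (31% of the variance), and results that rest on them are given with and without them where that is possible.

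Among CT0 to CT24, most sterol synthesis transcripts were highest at CT4 and lowest at CT24. Differences among the 7 time points passed the threshold (limma, Benjamini-Hochberg adjusted p under 0.05) for 21 of the 30 genes, against 43.5% of the 14426 genes tested. Values were analysed as log2(value + 1), and the highest and lowest time points are those of the means on that scale. The range between the highest and the lowest time-point mean had a median of 0.24 on the log2 scale over the 30 genes and 0.19 over all tested genes. The lowest mean was at CT24 for 19 of the 30 genes and the highest at CT4 for 12, all of which belong to the mevalonate and sterol groups.

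**Figure D1:**
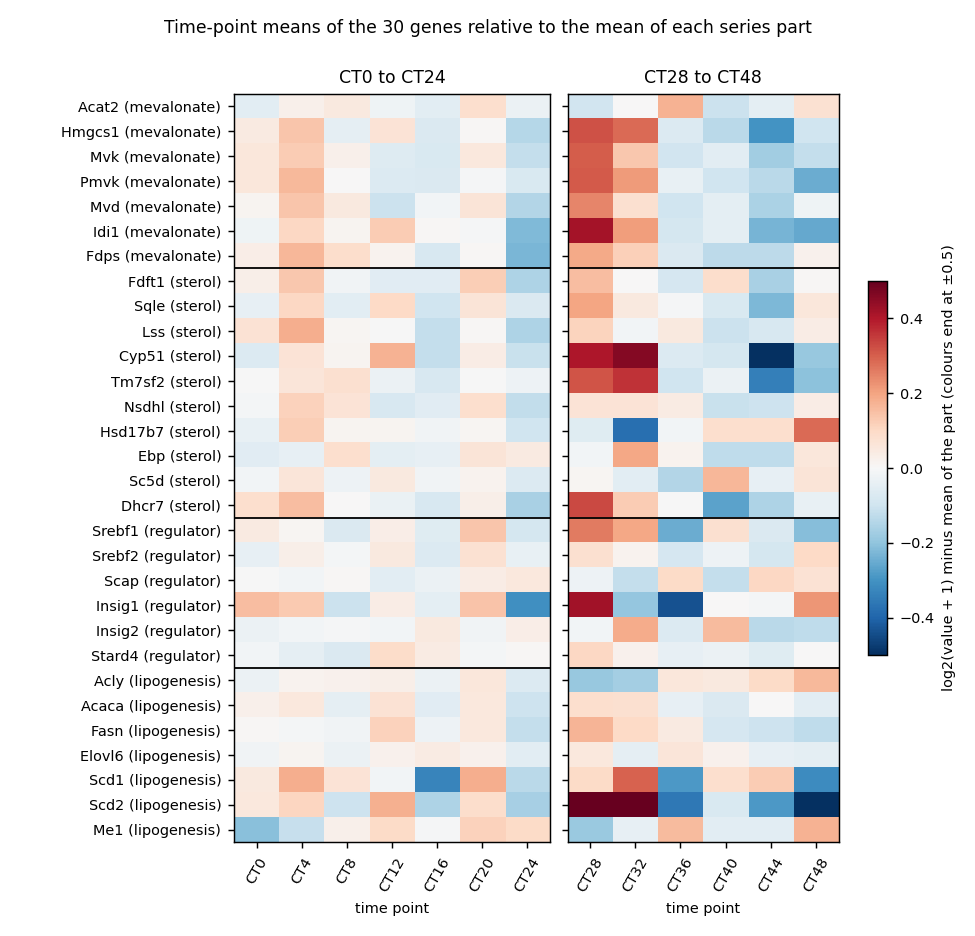
Time-point means of the 30 genes as log2(value + 1) minus the mean of the same part of the series, with time points across and genes down, ordered by role; the parts were centred separately. The CT24 column is the lowest of its part for 19 genes, and CT28 is the highest of its part for 15 genes.

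All 7 mevalonate genes changed among CT0 to CT24. Fdps, which makes farnesyl diphosphate, had the widest range of the group, 0.40, with means of 1955 at CT24 and 2575 at CT4. Idi1, the isopentenyl diphosphate isomerase, ranged by 0.35 with its highest mean at CT12, and Mvd, Hmgcs1, Mvk and Pmvk ranged by 0.24 to 0.29 with their highest mean at CT4. Acat2, the thiolase at the start of the pathway, ranged by 0.14, and its highest mean was at CT20.

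The sterol group had 7 of 10 genes past the threshold. Lss, lanosterol synthase, ranged by 0.34, Dhcr7, the last reductase of the pathway, by 0.32, and Fdft1, squalene synthase, by 0.29, each with the lowest mean at CT24 and the highest at CT4. Cyp51, the lanosterol demethylase, ranged by 0.29 between its highest mean at CT12 and its lowest at CT16. Nsdhl and Hsd17b7, which take part in the steps that remove methyl groups from the sterol ring, ranged by 0.24 and 0.22. Sqle, squalene epoxidase, ranged by 0.21, while Tm7sf2 (0.16, adjusted p = 0.149), the sterol isomerase Ebp (0.14, adjusted p = 0.0823) and the sterol desaturase Sc5d (0.13, adjusted p = 0.114) did not pass the limma test.

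Among the regulators, Insig1 and Stard4 changed. Insig1 ranged by 0.46 between CT0, the highest mean, and CT24, the lowest. Stard4, a cholesterol transfer protein, ranged by 0.16 with its highest mean at CT12. The ranges of Srebf1 (0.23), Srebf2 (0.15), Scap (0.11) and Insig2 (0.080) did not pass the test.

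Of the 7 fatty acid synthesis genes 5 changed. Scd1, a stearoyl-CoA desaturase, had the widest range of the 30 genes, 0.51, with means of 1176 at CT20 and 825 at CT16. Its mean of 1177 at CT4 was as high on the linear scale. Its paralog Scd2 ranged by 0.34 between CT12 and CT24, and Me1, the cytosolic malic enzyme that supplies NADPH, ranged by 0.33 between CT20 and CT0. Acaca, acetyl-CoA carboxylase, ranged by 0.17 and Acly, ATP citrate lyase, by 0.13. Fasn, fatty acid synthase (0.23, adjusted p = 0.202), and the elongase Elovl6 (0.093, adjusted p = 0.116) did not pass the test. Without replicate 3 the number of the 30 genes called fell to 13, against 16.6% of all tested genes.

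Among 44 other genes of sterol and lipid metabolism, 29 changed over the same time points. Pnpla3, a lipid droplet protein, ranged by 0.93 and was highest at CT4 and lowest at CT24. Its level was low in this tissue, with means of 33.5 at CT4 and 17 at CT24. Ch25h, cholesterol 25-hydroxylase, ranged by 0.69 and Cyp27a1, a sterol hydroxylase, by 0.60.

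**Figure D2:**
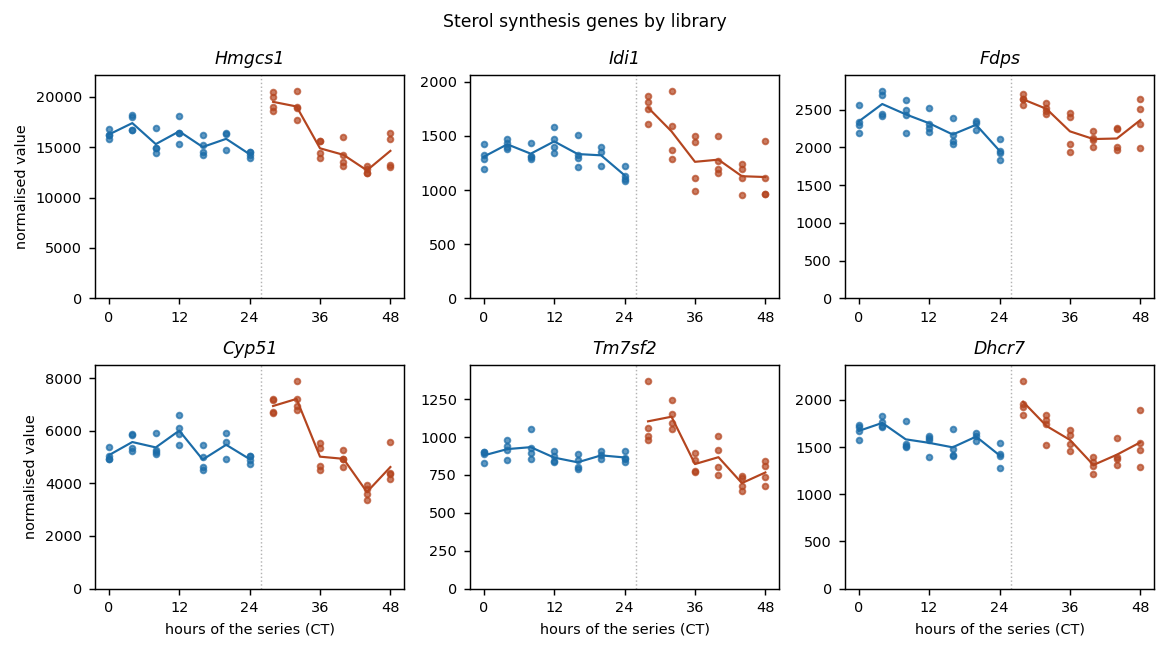
Normalised values of 6 sterol synthesis genes in each library (points) against hours of the series, with lines through the time-point means; the dotted line separates the parts, whose levels are not comparable. The CT24 libraries of Hmgcs1 and Fdps lie below those of CT0, and the CT28 and CT32 libraries of Hmgcs1 and Cyp51 lie above all later libraries of the series.

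The comparison of CT24 with CT0 sets embryonic day 19 against embryonic day 18 at the same clock time. At CT24, 12 of the 30 genes were lower and 1 was higher, against 12.2% of all tested genes lower and 14.3% higher. The median log2 difference of the 30 genes was -0.12, and that of all tested genes was 0.0011. The 12 lower genes comprised 6 of the mevalonate group, 3 of the sterol group, Insig1, and 2 of fatty acid synthesis.

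Insig1, whose promoter window above carries 1 CCAAT and 1 CACGTG, had the largest difference. Its values were 1780, 1610, 1704 and 1744 at CT24, against 2288, 2406, 2666 and 2070 at CT0. The groups did not overlap, and the log2 difference was -0.46 ± 0.07 (SE, n = 4 each, limma adjusted p = 5.6e-05). None of the other regulators passed the test. Srebf1 differed by -0.13 ± 0.07, Srebf2 by 0.0035 ± 0.05, Scap by 0.05 ± 0.04, Insig2 by 0.06 ± 0.05 and Stard4 by 0.02 ± 0.04.

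In the mevalonate group Fdps was lower in every CT24 library. Fdps had 1831, 1925, 1946 and 2117 at CT24, against 2190, 2340, 2558 and 2291 at CT0, a log2 difference of -0.26 ± 0.06 (limma adjusted p = 0.00128). For Hmgcs1, HMG-CoA synthase, whose window above holds the sterol response element core, the values were 14476, 14486, 14254 and 13955 at CT24, against 16776, 16190, 15799 and 16233 at CT0, without overlap. Its log2 difference was -0.18 ± 0.05. Idi1 (-0.20), Mvk (-0.17), Mvd (-0.16) and Pmvk (-0.13) were also lower, and of these Idi1 and Mvk had overlapping groups. Acat2 differed by 0.03 ± 0.04 (adjusted p = 0.682).

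In the sterol group Dhcr7, Lss and Fdft1 were lower and the other 7 genes did not pass the test. Dhcr7 had 1424, 1280, 1406 and 1538 at CT24, against 1571, 1730, 1672 and 1711 at CT0, with a log2 difference of -0.24 ± 0.06. Lss had means of 1176 ± 36 at CT24 and 1376 ± 26 at CT0 (SD, n = 4 each), a log2 difference of -0.23 ± 0.06, and Fdft1 had 1858.5 ± 21.8 at CT24 and 2114 ± 57 at CT0, a log2 difference of -0.19 ± 0.05. Neither gene's groups overlapped. Cyp51, which changed in later comparisons, differed by -0.04 ± 0.06.

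Fatty acid synthesis genes moved in both directions. Me1 was the 1 gene that rose, with 1760, 2018, 1754 and 1820 at CT24, against 1619, 1451, 1414 and 1469 at CT0. All 4 CT24 libraries lay above those of CT0, and the log2 difference was 0.30 ± 0.05 (limma adjusted p = 1.2e-05). Scd2 fell by 0.22 and Acaca fell by 0.13 on the log2 scale, each without overlap. Of the 8 fits that left out 1 library, 7 lost the call for Scd2 and 6 that for Acaca. The differences of Scd1 (-0.18), Fasn (-0.12), Acly (-0.04) and Elovl6 (-0.04) did not pass the test.

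Of the 44 other genes 8 were higher and 7 lower at CT24. The largest rises were those of Ch25h (0.58), the lysosomal lipase Lipa (0.43), the acyltransferase Dgat2 (0.37) and Acacb (0.31), the carboxylase of the mitochondrial surface. The genes that fell included Pnpla3 (-0.90) and the desaturase Fads2 (-0.19). All 6 proliferation markers were lower at CT24, with sums of 28849 to 32990 at CT24 and 37122 to 39003 at CT0, and 4 of 5 tested macrophage markers were higher. Of the 10 liver markers 3 were higher and 0 lower, with sums of 11609 to 14247 at CT24 and 9704 to 10511 at CT0. Kidney markers also changed, 4 of 10 being higher and 3 lower, with sums of 77983 to 81463 at CT24 and 59769 to 66120 at CT0. The part of all these markers in the results was not tested.

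**Figure D3:**
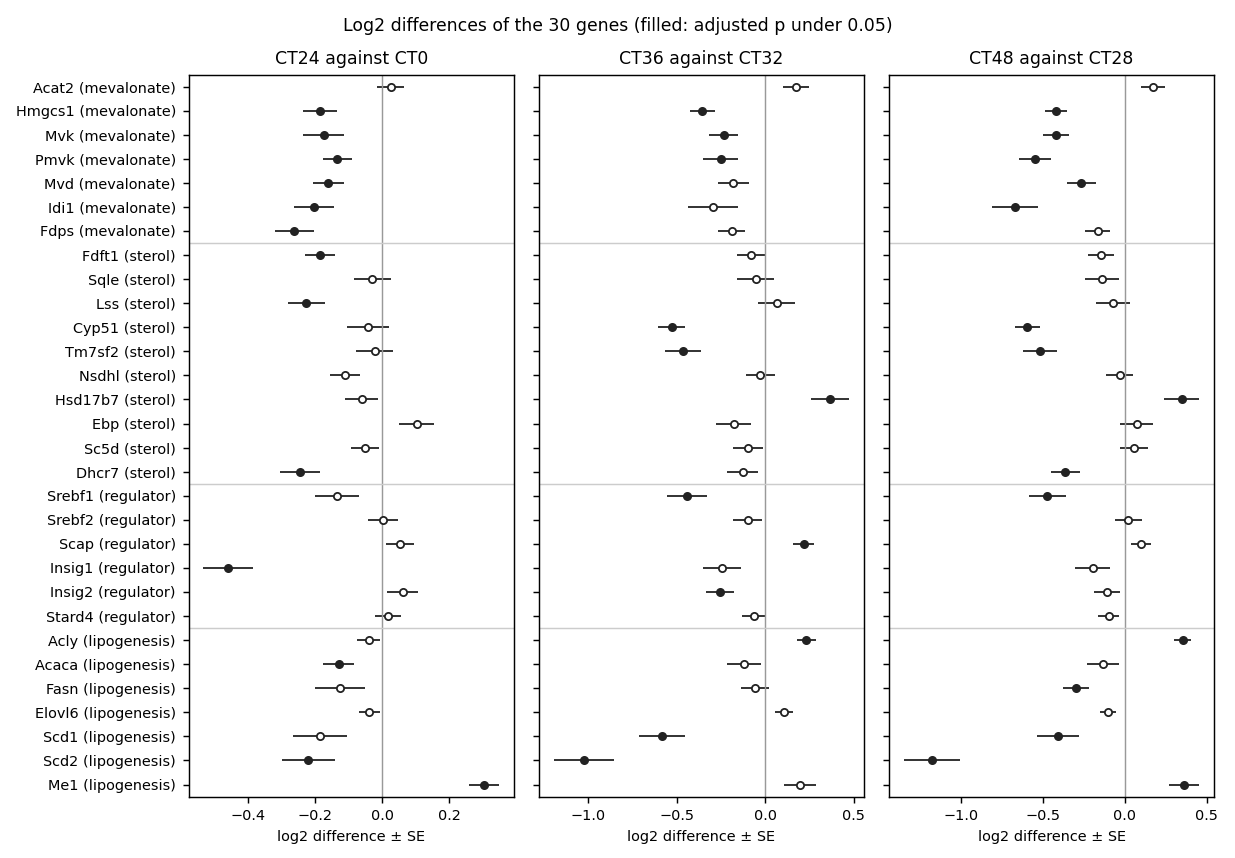
Log2 differences with their SE (bars) for the 30 genes in 3 comparisons, one panel each, with genes ordered by role; filled points have an adjusted p under 0.05. Points left of 0 are lower at the later time, and Scd2 reaches -1.18 at CT48 against CT28.

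Opposite clock times of embryonic day 18 were compared as CT12 against CT0. Only 3 of the 30 genes passed the test, 2 higher and 1 lower, against 8.6% of all tested genes higher and 9.96% lower. The median log2 difference was 0.021 for the 30 genes and -0.0089 for all tested genes. Me1 had 1857, 1914, 1762 and 1824 at CT12, against 1619, 1451, 1414 and 1469 at CT0, without overlap (log2 difference 0.31 ± 0.05, limma adjusted p = 4.2e-05). Cyp51 had 5439, 6598, 6089 and 5889 at CT12, against 5393, 5022, 4930 and 4933 at CT0, again without overlap (log2 difference 0.24 ± 0.06). Pmvk, phosphomevalonate kinase, fell by 0.12 with overlapping groups, and the call was lost in 7 of the 8 fits that left out 1 library.

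No regulator passed the limma test at CT12 against CT0, and 1 of the 6, Stard4, had an unadjusted p under 0.05. Stard4 differed by 0.11 ± 0.04, Insig1 by -0.11 ± 0.07, Srebf2 by 0.09 ± 0.05, Scap by -0.05 ± 0.04, Insig2 by 0.02 ± 0.05 and Srebf1 by -0.013 ± 0.07. The number of genes called was 5 without CT0 replicate 1 and 5 without CT12 replicate 1, against 17.1% and 18.1% of all tested genes. In the wider list of 44 genes, 4 were higher (Ch25h, Lipa, the prenyl diphosphate synthase Ggps1 and the ubiquitin ligase Rnf145) and 2 lower (Cyp27a1 and the phosphatidate phosphatase Lpin1). Of the 6 proliferation markers 3 were lower, with sums of 32363 to 35641 at CT12 and 37122 to 39003 at CT0. Of the 5 tested macrophage markers 2 were higher, with sums of 4175 to 4443 at CT12 and 3169 to 3828 at CT0, and 2 of 10 liver markers were higher, with sums of 9782 to 11884 at CT12 and 9704 to 10511 at CT0. Kidney markers were 3 of 10 higher and 2 lower, with sums of 70190 to 78195 at CT12 and 59769 to 66120 at CT0. The part of all these markers was not tested.

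Among CT28 to CT48 the ranges were wider, and 24 of the 30 genes changed, against 64.7% of all tested genes. The median range was 0.36 for the 30 genes and 0.43 for all tested genes. CT28 was the highest time point for 15 of the 30 genes and CT32 for 7. Without CT28 and CT32, 7 of the 30 genes passed the test, Cyp51, Insig1, Insig2, Scd1 and Scap among them, against 22% of all tested genes.

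All 7 mevalonate genes passed the test among CT28 to CT48, and 6 of them were highest at CT28. Idi1 ranged by 0.67, with means of 1120.5 at CT48 and 1761.5 at CT28. Hmgcs1 ranged by 0.62, Pmvk by 0.55, Mvk by 0.48, Mvd by 0.40 and Fdps by 0.32. Acat2 was highest at CT36 and ranged by 0.28.

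In the sterol group 8 of 10 genes passed. Cyp51, with 1 CCAAT in its window above, ranged by 0.97 on the log2 scale, with values of 3371, 3611, 3924 and 3772 at CT44, against 6803, 7210, 7879 and 6944 at CT32. Every CT44 library was below every CT32 library. Tm7sf2, a sterol reductase, ranged by 0.70 between CT44 and CT32, and Dhcr7 by 0.60 between CT40 and CT28. Hsd17b7 ran the other way, with its highest mean at CT48 (1333) and its lowest at CT32 (841), a range of 0.66. Sqle (0.42), Ebp (0.32), Fdft1 (0.32) and Sc5d (0.32) also passed, while Lss (0.22, adjusted p = 0.335) and Nsdhl (0.18, adjusted p = 0.129) did not.

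Of the regulators Insig1, Srebf1, Insig2 and Scap passed. Insig1 ranged by 0.85, with 1284, 1810, 1824 and 1499 at CT36, against 2928, 2983, 2826 and 2757 at CT28. Each CT28 library lay above each CT36 library. Srebf1 ranged by 0.51, Insig2 by 0.32 and Scap by 0.22. Srebf2 (0.19, adjusted p = 0.188) and Stard4 (0.16, adjusted p = 0.223) did not pass.

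Scd2 had the widest range of the 30 genes in this part, 1.23, with means of 27398 at CT48 and 64227 at CT32. Scd1 ranged by 0.61 between the same time points. Me1 (0.36) and Acly (0.35) were lowest at CT28 and highest at CT48, while Fasn (0.30) was highest at CT28 and lowest at CT48. Acaca (0.15, adjusted p = 0.524) and Elovl6 (0.11, adjusted p = 0.126) did not pass. Of the 44 other genes 31 passed, with the widest ranges for Thrsp (3.44), Pnpla3 (2.39) and Lpin1 (1.13). Thrsp, a lipogenic factor, was low in this tissue, with a mean of 40.5 at CT40 and 3.75 at CT28.

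**Figure D4:**
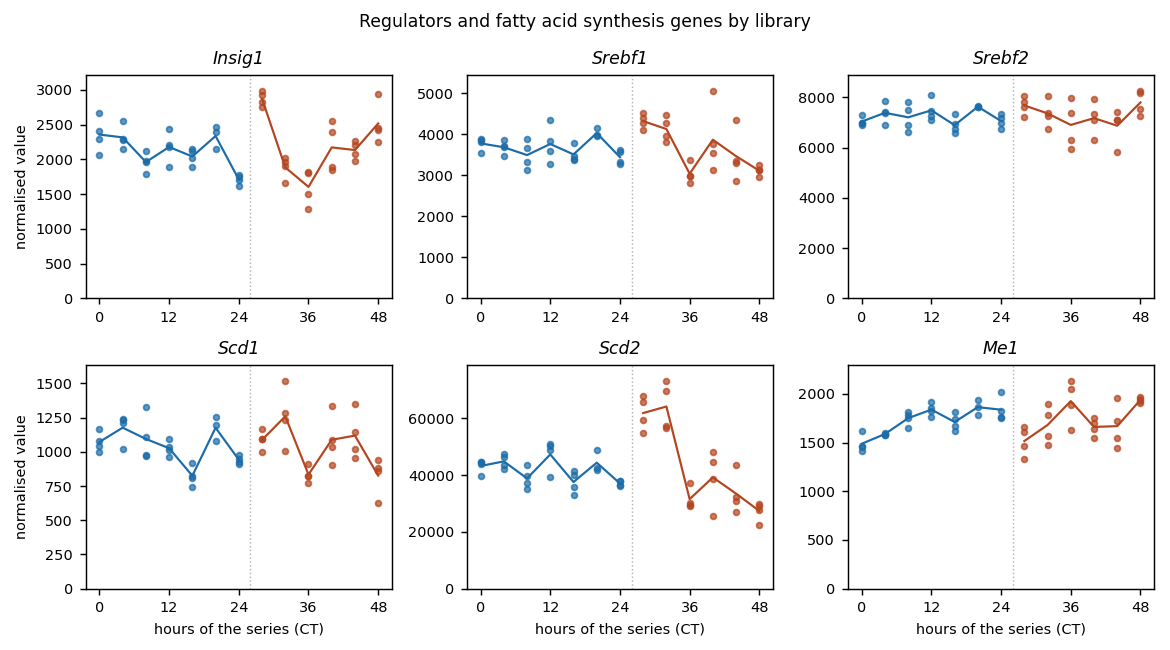
Normalised values of 3 regulators and 3 fatty acid synthesis genes in each library (points) against hours of the series, with lines through the time-point means; the dotted line separates the parts, whose levels are not comparable. Insig1 is lowest at CT36 and back at 2251 to 2941 at CT48, while the Scd2 values of CT36 and later stay below those of CT28 and CT32.

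CT36 against CT32 is the 4 h step at which the second part divides along its first component. Here 12 of the 30 genes changed, against 34.8% of all tested genes. At CT36, 9 of them were lower and 3 higher, against 19.1% of all tested genes lower and 15.7% higher. The median log2 difference was -0.12 for the 30 genes and -0.015 for all tested genes.

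Scd2 had 29633, 30199, 29204 and 37156 at CT36, against 57296, 73119, 69708 and 56786 at CT32. The groups were far apart, with a log2 difference of -1.02 ± 0.17 (limma adjusted p = 0.000156). Scd1 had 823, 826, 773 and 913 at CT36, against 1285, 1516, 1231 and 1008 at CT32, a log2 difference of -0.58 ± 0.13 without overlap. Acly, which supplies cytosolic acetyl-CoA, was higher at CT36 by 0.23 ± 0.05. Me1 (0.20), Acaca (-0.12), Elovl6 (0.10) and Fasn (-0.06) did not pass.

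In the sterol group Cyp51 had 4664, 5354, 5543 and 4495 at CT36, against 6803, 7210, 7879 and 6944 at CT32, a log2 difference of -0.53 ± 0.08 (limma adjusted p = 8e-06). Tm7sf2 had 771, 892, 846 and 778 at CT36, against 1092, 1053, 1149 and 1243 at CT32, a log2 difference of -0.46 ± 0.10. Both genes were lower in every CT36 library. Hsd17b7 rose by 0.36 ± 0.11 on the log2 scale with overlapping groups, and its call was lost without CT36 replicate 2 or CT36 replicate 3. Of the mevalonate genes Hmgcs1 fell by 0.35 ± 0.07, Pmvk by 0.25 ± 0.10 and Mvk by 0.23 ± 0.08, all without overlap. The Pmvk call was lost in 5 of the 8 fits that left out 1 library, and the Mvk call in 3.

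Regulators were split in direction. Srebf1 had 2802, 3367, 2990 and 2979 at CT36, against 3947, 4469, 4265 and 3807 at CT32, a log2 difference of -0.44 ± 0.11 without overlap. Insig2 was lower by 0.25 on the log2 scale with overlapping groups, and Scap was higher by 0.22 ± 0.06 without overlap. Insig1 (-0.24, adjusted p = 0.0722), Srebf2 (-0.10) and Stard4 (-0.06) did not pass the test.

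Outside the 30 genes, 9 of the 44 others were higher at CT36, led by Thrsp (1.71), the elongase Elovl1 (0.45) and the acyltransferases Gpam (0.40) and Dgat1 (0.26). Another 6 were lower, among them Pnpla3 (-2.39), Fads2 (-0.54) and the lysosomal cholesterol carrier Npc2 (-0.27). Pnpla3 was low at both times, with means of 10.25 at CT36 and 54.25 at CT32. 5 of 6 proliferation markers were lower, with sums of 28788 to 30938 at CT36 and 37840 to 43895 at CT32, and 1 of 5 tested macrophage markers was higher. Of the 10 liver markers 3 were higher and 1 lower, with sums of 10844 to 12323 at CT36 and 9215 to 11817 at CT32. The adipose markers summed to 5949 to 11172 at CT36 and 10684 to 12597 at CT32, nearly all of it from Fabp4, which is also made by capillary endothelium. The defining fat cell genes Adipoq, Plin1, Cidea and Cidec were at 0 to 20 in any library. Kidney markers were 3 of 10 higher and 2 lower, with sums of 72201 to 78478 at CT36 and 72522 to 83850 at CT32. The part of all these markers in the result was not tested.

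The second day's ends were compared as CT48 against CT28. The test was passed by 15 of the 30 genes, against 53.9% of all tested genes. At CT48, 12 were lower and 3 higher, against 28.1% of all tested genes lower and 25.7% higher. The median log2 difference was -0.14 for the 30 genes and -0.013 for all tested genes. The times differ by 20 h, so age and clock time both differ.

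The mevalonate group had 5 of 7 genes lower at CT48. Idi1, with 2 CCAAT boxes in its window above, had 963, 1109, 961 and 1449 at CT48, against 1868, 1814, 1611 and 1753 at CT28, a log2 difference of -0.67 ± 0.14 without overlap. Pmvk (-0.55), Mvk (-0.42), Hmgcs1 (-0.42) and Mvd (-0.27) were also lower without overlap. Hmgcs1 values were 16395, 13274, 13012 and 15830 at CT48, against 18539, 18957, 20452 and 20010 at CT28.

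Of the sterol genes Cyp51 (-0.60), Tm7sf2 (-0.52) and Dhcr7 (-0.36) were lower, and Hsd17b7 was higher. Hsd17b7 had 1181, 1523, 1242 and 1387 at CT48, against 966, 1171, 1029 and 1021 at CT28, a log2 difference of 0.35 ± 0.11, and its groups did not overlap. Of the regulators only Srebf1 passed, with 3130, 2943, 3243 and 3117 at CT48, against 4105, 4395, 4501 and 4261 at CT28. Every CT48 library was lower than every CT28 library, and the log2 difference was -0.47 ± 0.11 (limma adjusted p = 0.000895). Insig1 (-0.20), Insig2 (-0.11), Stard4 (-0.10), Scap (0.10) and Srebf2 (0.02) did not pass.

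Scd2 had the largest difference, with 29250, 22461, 27878 and 30002 at CT48, against 54853, 67768, 65648 and 59396 at CT28. The lowest CT28 library exceeded every CT48 library, and the log2 difference was -1.18 ± 0.17 (limma adjusted p = 9.53e-06). Scd1 (-0.41) and Fasn (-0.30) were also lower. Me1 (0.36) and Acly (0.35) were higher, the direction Me1 also had at CT24 against CT0.

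In the list of 44 other genes, 13 were higher at CT48, led by Thrsp (2.97), Lpin1 (1.13), the cholesterol exporter Abca1 (0.87) and the lysosomal cholesterol transporter Npc1 (0.64), and 9 lower, among them Fads2 (-0.56), the oxysterol receptor gene Nr1h3 (-0.53) and the elongase Elovl5 (-0.26). All 6 proliferation markers were lower, with sums of 26291 to 31309 at CT48 and 42831 to 45171 at CT28, and all 5 tested macrophage markers were higher. Of the 4 tested adrenal markers 2 were higher and 0 lower, and the adrenal list summed to 260 to 330 at CT48 and 179 to 698 at CT28. Of the 10 liver markers 3 were higher and 0 lower, with sums of 11282 to 13410 at CT48 and 8569 to 10151 at CT28. Kidney markers were 6 of 10 higher and 1 lower, with sums of 67723 to 78234 at CT48 and 58896 to 69830 at CT28. The part of all these markers was not tested. In the fits that left out 1 library 14 to 18 of the 30 genes were called, against 49.2% to 52.6% of all tested genes.

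CT48 against CT36 sets opposite clock times of the last day side by side without CT28 and CT32. Insig1 was the 1 gene of the 30 that passed, against 13.9% of all tested genes, 6.74% being higher and 7.17% lower. Insig1 had 2251, 2450, 2427 and 2941 at CT48, against 1284, 1810, 1824 and 1499 at CT36. The groups did not overlap, and the log2 difference was 0.66 ± 0.10 (SE, n = 4 each, limma adjusted p = 0.000184). It was 0.56 to 0.72 in the 8 fits that left out 1 library, with adjusted p of at most 0.00135.

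No mevalonate, sterol or fatty acid synthesis gene passed the limma test at CT48 against CT36, and 1, 2 and 2 of them had an unadjusted p under 0.05. The smallest p of each group was that of Pmvk (-0.21 ± 0.10, adjusted p = 0.155), Hsd17b7 (0.30 ± 0.11, adjusted p = 0.067) and Fasn (-0.17 ± 0.08, adjusted p = 0.142). Among the regulators Srebf2 differed by 0.18 ± 0.08, Insig2 by -0.06 ± 0.08, Stard4 by 0.05 ± 0.06, Srebf1 by 0.04 ± 0.11 and Scap by -0.02 ± 0.06. The number of genes called was 3 without CT36 replicate 2, against 13.1% of all tested genes. It was 2 without CT36 replicate 3 (11.7%), CT48 replicate 1 (8.85%) or CT48 replicate 4 (14.7%). Of the 44 other genes 6 were higher, among them Pnpla3 (1.86), Lpin1 (0.79) and the ubiquitin ligase Mylip (0.36), and Nr1h3 (-0.64) was lower.

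The difference between the days in this 12 h contrast was tested after these values had been seen, as CT48 minus CT36 against CT24 minus CT12. It passed the threshold for 5 of the 30 genes, against 9.52% of all tested genes. Insig1 differed by 0.66 at CT48 against CT36 and by -0.34 at CT24 against CT12, and the difference between these was 1.00 ± 0.15 on the log2 scale (limma adjusted p = 5.16e-05). CT24 values of 1780, 1610, 1704 and 1744 stood against 1891, 2437, 2202 and 2184 at CT12, so the groups did not overlap on either day but lay in opposite order. Hsd17b7 (difference 0.41), Fdps (0.34), Sc5d (0.33) and Acly (0.20) also passed, all more positive on the later day. The call for Insig1 held in all 16 fits that left out 1 library, while each of the other 4 was lost in at least 2 of them.

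**Figure D5:**
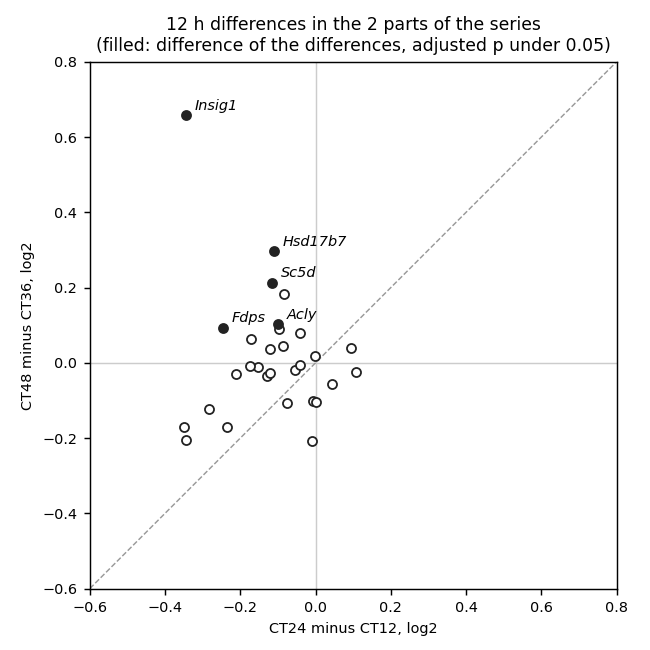
Log2 difference of CT48 minus CT36 (vertical) against CT24 minus CT12 (horizontal) for the 30 genes; filled and named points have a difference between the days with an adjusted p under 0.05, and the dashed line marks equal differences. Insig1 lies at 0.66 on the vertical and -0.34 on the horizontal axis, farther from the dashed line than the other 29 genes.

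A 24 h rhythm was tested over all 51 libraries as a cosine and sine with a line for age and a step between the parts. It passed for 6 of the 30 genes, against 12.3% of all tested genes. With an estimated correlation within time points, 0 of the 30 genes and 2 of the 14426 passed in limma (2 of the 30 at an unadjusted p under 0.05), and with the 13 time-point means in place of the libraries 0 of the 30 passed (0 at an unadjusted p under 0.05). The median amplitude was 0.064 for the 30 genes and 0.069 for all tested genes. Of the sterol group Cyp51 peaked at 7.5 h with a log2 amplitude of 0.22 (limma adjusted p = 0.0101), Tm7sf2 at 6.7 h (0.15), Ebp at 6.6 h (0.12) and Dhcr7 at 4.3 h (0.11). Insig1 peaked at 22.5 h with an amplitude of 0.18 (limma adjusted p = 0.0194), and Me1 at 9.0 h with 0.10. At the same clock time, however, Insig1 had means of 2357.5 at CT0 and 1709.5 at CT24, the highest and lowest of the first part. Its 12 h contrast was -0.34 on the earlier day and 0.66 on the later day, so a single repeating peak does not describe both days.

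Regulators other than Insig1 had amplitudes of 0.011 to 0.053 and did not pass. No mevalonate gene passed in limma, and 2 of the 7 had an unadjusted p under 0.05, with Hmgcs1 closest (amplitude 0.12, adjusted p = 0.0518). Leaving out 1 replicate number left 0 to 2 calls, against 1.55% to 5.02% of all tested genes. Without CT28 and CT32 there were 2, against 14% of all tested genes. Rhythms passed for 7 of the 44 other genes, led by Lpin1 (amplitude 0.26, peak 21.1 h), Mylip (0.15), the acetyl-CoA synthetase Acss2 (0.14) and Dgat2 (0.098). They also passed for 7 of the 10 kidney markers, whose part was not tested.

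The authors' deposited table of rhythm statistics gives a combined q under 0.05 for 11 of the 30 genes (36.7%), against 41.3% of its 16099 genes. In the authors' deposited table the smallest combined q of the 30 genes belong to Hmgcs1 (5.52e-07, period 26.7 h), Pmvk (7.39e-07, period 28 h) and Tm7sf2 (1.31e-06, period 26.8 h). Cyp51 has a q of 5.4e-06 with a period of 23.9 h and a phase of 7.1 h in the authors' deposited table. There Insig1 has a q of 0.31 and Me1 a q of 0.77. For the 30 genes its periods run from 20 to 28 h, and that of Pmvk lies at the end of this range. The test above fixed the period at 24 h with a line and a step, so its calls and these q values differ in measure.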

How the data were processed

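Poly-A RNA of fetal kidneys was sequenced on HiSeq instruments, per the labels' protocols. Per the submitters' processing notes, STAR 2.5.2b, featureCounts 1.5.0-p3 and bcl2fastq were used with mm10. The deposited expression values are a score, normalised by the authors and rounded to whole numbers. This was read from the values, since no source used here states the normalisation. The authors' deposited rhythm table holds p-values and q-values, periods and phases as scores, and relative amplitudes as ratios, per the file headers.

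Here log2(value + 1) was fitted with limma 3.58.1 (R 4.3.3), with variances moderated robustly along a trend in the mean. The 14426 genes tested had a mean of 10 or more. Each part was fitted alone for the comparisons of time points within it. The rhythm was fitted over all 51 libraries without weights, and the difference between days over all 51 with weights for each part. The p-values were Benjamini-Hochberg adjusted over all tested genes (threshold 0.05). The scale understates changes of low genes. The fits were tested on simulated data. The simulated noise was independent between libraries, so correlation within time points or by replicate number was not covered. Alternatives changed the pseudocount, filter, scaling, libraries in the fit, block and left-out libraries.

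Members, lists and tests were chosen with earlier results of these data known. In each comparison the regulators are named, with up to 6 called genes of each other role and up to 4 in each direction of the 44 other genes. Some genes that this rule selects are not reported here. No source used here says if counting used strand, so overlapping genes and the close copies Scd1 and Scd2 are uncertain as single genes. Promoter sequences are from RefSeq.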

Additional observations from a re-analysis of the deposited data

Results flagged for a closer look

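Among 360 sets of 4 libraries (30 genes at 12 time points), 22 held 1 library far from the other 3 by Dixon's criterion, which chance gives in about 1 of 20 sets. The library stood above the others with 959 for Mvk in CT16 replicate 4 (others 901 to 910), 1315 for Mvd in CT16 replicate 4 (others 1262 to 1271), 1433 for Idi1 in CT8 replicate 2 (others 1291 to 1314) and 2495 for Fdft1 in CT4 replicate 4 (others 2187 to 2204). It was also the highest with 5562 for Cyp51 in CT48 replicate 4 (others 4162 to 4396), 1583 for Sc5d in CT4 replicate 4 (others 1462 to 1471), 1435 for Sc5d in CT24 replicate 2 (others 1342 to 1354) and 1777 for Dhcr7 in CT8 replicate 2 (others 1502 to 1535). The remaining high values were 7294 for Srebf2 in CT0 replicate 2 (others 6912 to 6974), 2149 for Acaca in CT24 replicate 4 (others 2083 to 2090) and 37156 for Scd2 in CT36 replicate 4 (others 29204 to 30199). The library stood below the others with 1223 for Mvd in CT0 replicate 1 (others 1324 to 1341), 3060 for Sqle in CT40 replicate 4 (others 3784 to 3924), 1962 for Nsdhl in CT28 replicate 1 (others 2329 to 2400), 992 for Ebp in CT24 replicate 3 (others 1074 to 1083) and 2717 for Scap in CT0 replicate 1 (others 3025 to 3069). The remaining low values were 2800 for Scap in CT4 replicate 1 (others 2952 to 2981), 8541 for Acly in CT0 replicate 1 (others 9281 to 9410), 7834 for Acly in CT28 replicate 2 (others 8283 to 8352), 7684 for Fasn in CT28 replicate 1 (others 8597 to 8681), 1024 for Scd1 in CT4 replicate 2 (others 1210 to 1237) and 39201 for Scd2 in CT12 replicate 1 (others 49012 to 50913).

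The 12 h contrast of the later day minus that of the earlier day differed from 0 in a test chosen after the values had been seen: by 1.00 ± 0.15 on the log2 scale for Insig1 (adjusted p = 5.16e-05, limma), 0.41 for Hsd17b7 (adjusted p = 0.02), 0.33 for Sc5d (adjusted p = 0.0182), 0.34 for Fdps (adjusted p = 0.0399) and 0.20 for Acly (adjusted p = 0.0435). The days belong to parts of the series with different spreads. Without weights for each part the number of genes was also 5, against 10.6% of all tested genes.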

How the results depend on the processing

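Depth is unknown, so the spread between libraries sets the limits. Pseudocounts of 0.5 and 10, other filters, quantile normalisation and median-ratio rescaling moved no count of called genes by over 1.5 times. With all 51 libraries in 1 fit the common spread is wider than that of CT0 to CT24. Counts of the 30 genes are given with the share of all tested genes, and those of the part fitted alone stand in brackets. They were 10 and 9.32% among CT0 to CT24 (21 and 43.5%) and 5 and 10% at CT24 against CT0 (13 and 26.6%). At CT12 against CT0 they were 1 and 2.9% (3 and 18.6%). At CT36 against CT32 they were 19 and 48.1% (12 and 34.8%), and at CT48 against CT36, 6 and 29.2% (1 and 13.9%). Among CT28 to CT48, without CT28 and CT32, they were 7 and 22% (24 and 64.7% with them).

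The count for the 24 h rhythm (6, against 12.3% of all tested genes) was the least stable. The share of all tested genes follows each count in brackets. The count was 2 without CT0 (4.15%), 3 without CT12 (6.47%), 1 without CT32 (4.61%) and 1 without CT44 (5.12%). Without CT28 and CT32 it was 2 (14%). Time-point means gave 0 (0%), with 0 of the 30 at an unadjusted p under 0.05. An estimated correlation within time points gave 0 (0.0139%), with 2 of the 30 at an unadjusted p under 0.05. Weights for each part gave 3 (20.2%), no step 16 (44.4%), no line 16 (52.2%) and CT0 to CT24 alone 2 (20.9%). With no line the peak of Me1 moved by over 6 h (amplitude 0.060, adjusted p = 0.19). The causes were not tested.

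Leaving out replicates gave 13 to 19 genes among CT0 to CT24 (16.6% to 38% of all tested genes) and 20 to 24 among CT28 to CT48 (53.3% to 57.2%). It gave 9 to 12 at CT24 against CT0 (20.2% to 25.3%) and 2 to 5 at CT12 against CT0 (12.5% to 18.1%). The counts were 10 to 14 at CT36 against CT32 (27.2% to 35.7%) and 14 to 18 at CT48 against CT28 (49.2% to 52.6%). At CT48 against CT36 they were 1 to 3 (8.31% to 14.7%), and for the rhythm 0 to 2 (1.55% to 5.02%). For the difference between days they were 1 to 6 (5.74% to 10.9%), with 1 without CT36 replicate 1. Single calls were followed through these fits for the regulators and for up to 6 called genes of each other role. Acat2 and Sqle among CT0 to CT24 were not followed, nor were Acat2, Fdft1 and Sc5d among CT28 to CT48. Of followed calls, those lost in at least 1 fit among CT0 to CT24 were Acaca, Acly, Cyp51, Dhcr7, Hsd17b7, Mvk, Scd2 and Stard4. Among CT28 to CT48 they were Ebp, Fasn, Me1 and Sqle. At CT24 against CT0 they were Acaca, Idi1, Mvk, Pmvk and Scd2, at CT36 against CT32 Hsd17b7, Insig2, Mvk and Pmvk, and at CT48 against CT28 Mvd and Scd1.

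The main fits did not pair libraries by replicate number. Same-numbered deviations had a median correlation of 0.0355 in the first part (-0.302 to 0.38) and 0.00476 in the second part (-0.0859 to 0.153). For different numbers the medians were -0.0138 and -0.00864. In the 2 parts 11 of 27 and 8 of 24 libraries correlated best with their own number. Among CT0 to CT24 the replicate block gave 23 of the 30 genes and 51.5% of all tested genes, against 21 and 43.5% without it. Some structure by replicate number in the first part is therefore left in the main fits. The replicate block gave 5 genes at CT12 against CT0 (21.7% of all tested genes) and 2 at CT48 against CT36 (15.8%). In the other comparisons its counts of the 30 genes were within 1.5 times. At CT48 against CT36 the block by library number gave 2 (13.5%), as did leaving out the library of another ID prefix (11.7%).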
